A study of Mus musculus with 9 samples.

Results

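The regions described here were stretches of open chromatin that were called in every control library of both Cre lineages and in no library of embryos without Tbx1 in the Tbx1 lineage. They were selected on the peak calls themselves. The peaks of 9 ATAC-seq libraries of mouse embryos at E9.5 were merged wherever they overlapped by 1 bp or more, on chromosomes 1 to 19 and X, which gave 73301 merged regions. Of these, 624 (0.851%) overlapped a peak of all 3 Tbx1-Cre Ctrl and all 3 Mesp1-Cre Ctrl libraries and a peak of no Tbx1-Cre cKO library. Regions called in all 6 control libraries numbered 17705, so the 624 made up 3.52% of them. Another 1179 were called in 1 cKO library, 2258 in 2 and 13644 in all 3. Because the rule used the presence and absence of these peaks, the lack of cKO peaks at the 624 regions is how they were chosen and not a finding.

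All embryos were of the Swiss Webster strain and carried a Rosa26 reporter that makes GFP once Cre has acted. The Tbx1-Cre Ctrl genotype was Tbx1Cre;Rosa26-GFPflox/+, the Mesp1-Cre Ctrl genotype Mesp1Cre;Rosa26-GFPflox/+ and the Tbx1-Cre cKO genotype Tbx1Cre/flox;Rosa26-GFPflox/+. The Tbx1-Cre allele is a knock-in that disrupts the copy of Tbx1 it sits in, so the Tbx1-Cre Ctrl cells had 1 intact copy and the cKO cells none after recombination, while the Mesp1-Cre Ctrl cells had normal Tbx1. Living GFP-positive cells were sorted from pooled embryos, so each library is a mixture of all cells with a history of that Cre, and fewer cells of a type cannot be told apart from less accessible chromatin in each cell. The labels give pharyngeal apparatus and heart as the tissue of the Mesp1-Cre embryos and add the back for both Tbx1-Cre groups, so the dissection differed between the lineages, whereas the methods of the study describe the ATAC-seq tissue without the heart.

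Tbx1 encodes a T-box transcription factor and is the gene chiefly tied to the defects of the heart outflow tract and pharyngeal arches in DiGeorge syndrome. It acts in the pharyngeal mesoderm, whose cells contribute to the second heart field, to the muscles of the head and neck and to connective tissue. Mesp1 is switched on early in nascent mesoderm, so Mesp1-Cre marks the mesoderm lineage. Tbx1-Cre also marks pharyngeal endoderm and ectoderm, and a region called in both sets of controls is therefore one that was open in cells that include mesoderm. ATAC-seq reads accessible DNA by the insertions of a transposase. Distal accessible regions are often enhancers, which hold short motifs for transcription factors and can act on genes far away.

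The files held intervals only, with no score or read count, so depth is unknown. The number of peaks on the chromosomes used was 43271 to 49477 in Tbx1-Cre Ctrl, 25476 to 42638 in Mesp1-Cre Ctrl and 19762 to 29249 in cKO, and these ranges of the Tbx1-Cre groups did not overlap. All 3 cKO lists were shorter than every Tbx1-Cre Ctrl list, and the part of list length in the lack of a cKO peak was not tested apart from the equal-length lists given below. Mesp1-Cre Ctrl replicate 1 had the longest list of its group, and the length of that list is not among those that the study's sample summary gives for Mesp1-Cre, so which library it is remains unclear. Without it the rule gave 660 regions. The labelled mesoderm was checked at gene promoters (within 1 kb of a start site). Of the mesoderm genes, Isl1, Hand2, Twist1 and Prrx1 had a promoter peak in all 6 control libraries. The other mesoderm genes did not: Foxf1a had one in 3 Tbx1-Cre Ctrl and 2 Mesp1-Cre Ctrl libraries, Tcf21 in 2 and 1, and Mesp1 in 1 and 0. In cKO, Isl1 and Twist1 had a promoter peak in all 3 libraries, Prrx1 in 2, Hand2, Foxf1a and Tcf21 in 1 each and Mesp1 in none. Epithelial genes were called as well. Pax9 and Krt8 had a promoter peak in all 9 libraries, Epcam in 2 Tbx1-Cre Ctrl and 2 Mesp1-Cre Ctrl libraries, Cdh1 in 2 and 1, and Foxa2 in 1 and 0, and the last 3 had none in cKO. Of the endothelial genes, Kdr had a promoter peak in all 9 libraries, Tal1 in 1 Tbx1-Cre Ctrl, 2 Mesp1-Cre Ctrl and 1 cKO library, and Cdh5 in none. The neural crest gene Sox10 had none in any library, and Foxd3 had one in 1 Tbx1-Cre Ctrl library.

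Sequences of 6 of the regions are printed as examples of what they hold, each as the 300 bp around the midpoint of the stretch shared by most libraries, plus strand of mm9. The first 3 are the named regions with the T-box letters GGTGTGA, shown because a T-box factor was removed in the cKO cells, with the match in capitals.
Near Hand2, chr8:59819748-59820047: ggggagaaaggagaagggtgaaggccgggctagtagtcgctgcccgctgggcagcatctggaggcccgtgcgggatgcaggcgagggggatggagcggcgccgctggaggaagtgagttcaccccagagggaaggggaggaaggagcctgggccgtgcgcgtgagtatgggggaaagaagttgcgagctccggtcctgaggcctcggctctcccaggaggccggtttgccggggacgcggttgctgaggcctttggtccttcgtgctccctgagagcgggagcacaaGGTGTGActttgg
Near Arid1b, chr17:4861124-4861423: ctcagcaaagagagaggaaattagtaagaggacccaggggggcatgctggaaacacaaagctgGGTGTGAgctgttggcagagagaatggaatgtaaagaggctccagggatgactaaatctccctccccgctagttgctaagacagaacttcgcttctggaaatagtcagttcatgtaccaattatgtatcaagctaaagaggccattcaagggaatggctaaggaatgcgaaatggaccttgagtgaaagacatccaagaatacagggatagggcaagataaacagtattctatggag
In 1700112E06Rik, chr14:23467158-23467457: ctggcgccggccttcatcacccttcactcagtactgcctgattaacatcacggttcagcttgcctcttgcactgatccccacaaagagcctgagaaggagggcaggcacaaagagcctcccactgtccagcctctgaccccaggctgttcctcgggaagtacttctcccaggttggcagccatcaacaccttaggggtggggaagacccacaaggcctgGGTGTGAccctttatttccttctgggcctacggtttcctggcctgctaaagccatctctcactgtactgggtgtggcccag

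The next 3 show 2 of the motifs that were more common among the distal regions called in no cKO library than among those called in all 9 libraries (values below). In the Sfrp1 and Tbx3 windows the capitals mark the GATA letters AGATAA, which read TTATCT where the match is on the minus strand, and in the Acvr2a window they mark a MEF2 motif.
Near Sfrp1, chr8:24490278-24490577: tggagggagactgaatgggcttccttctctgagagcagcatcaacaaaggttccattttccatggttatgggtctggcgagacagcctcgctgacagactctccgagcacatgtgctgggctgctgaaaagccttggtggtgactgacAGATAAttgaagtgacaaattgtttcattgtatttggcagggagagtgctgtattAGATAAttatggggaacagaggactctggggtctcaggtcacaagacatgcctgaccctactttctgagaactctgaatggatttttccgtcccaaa
Near Tbx3, chr5:120025149-120025448: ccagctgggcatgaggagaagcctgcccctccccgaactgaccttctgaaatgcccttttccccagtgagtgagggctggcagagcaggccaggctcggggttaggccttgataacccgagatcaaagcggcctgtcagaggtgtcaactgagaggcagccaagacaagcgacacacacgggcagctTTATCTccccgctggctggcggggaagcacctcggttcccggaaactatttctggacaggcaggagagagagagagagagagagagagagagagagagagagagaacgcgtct
Nearest to Acvr2a, chr2:47993717-47994016: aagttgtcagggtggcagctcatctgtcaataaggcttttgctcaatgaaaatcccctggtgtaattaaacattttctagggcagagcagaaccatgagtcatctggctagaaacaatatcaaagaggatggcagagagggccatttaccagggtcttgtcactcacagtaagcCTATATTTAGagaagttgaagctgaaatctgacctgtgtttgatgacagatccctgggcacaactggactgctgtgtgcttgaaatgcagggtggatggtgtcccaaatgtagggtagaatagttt

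The regions were short. Merged over the 9 lists, they had a median length of 707 bp (275 to 1809 bp) and spanned 464 kb in all. The measure used below is the covered length, the number of bp of a region that lie in peaks of a library. Its median over the 624 regions was 481, 474.5 and 523.5 bp in Tbx1-Cre Ctrl replicates 1, 2 and 3, and 531, 330.5 and 382.5 bp in the Mesp1-Cre Ctrl libraries. The Mesp1-Cre Ctrl values lay on both sides of the Tbx1-Cre Ctrl values, with replicates 2 and 3 below and replicate 1 above. The group means were 493 ± 26.6 bp and 415 ± 104 bp (SD, n = 3 each). The mean of Mesp1-Cre Ctrl minus that of Tbx1-Cre Ctrl was -78.3 bp, which did not exceed the spread (p = 0.4, exact permutation test, two-sided, with 0.1 the smallest that 3 against 3 can give). It was -136 bp without Mesp1-Cre Ctrl replicate 1 and -36.2 bp without replicate 2. As a percentage of the same library's median over the regions called in all 9 libraries, the means were 58.0 ± 2.75 and 55.7 ± 8.54 (SD, n = 3 each, exact two-sided permutation p = 0.7). Within its own list, the widest peak of a member sat at a median percentile of 49.7, 46.1 and 50.4 in the Tbx1-Cre Ctrl libraries and of 56.7, 32.6 and 37.0 in the Mesp1-Cre Ctrl libraries. They were thus peaks of about average width in Tbx1-Cre Ctrl and in Mesp1-Cre Ctrl replicate 1, and of less than average width in the other two Mesp1-Cre Ctrl libraries. In 542 of the 624 (86.9%) all 6 control peaks shared at least 1 base, with a shared stretch of 195 bp at the median, and in the other 82 the peaks met only as a chain.

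**Figure D1:**
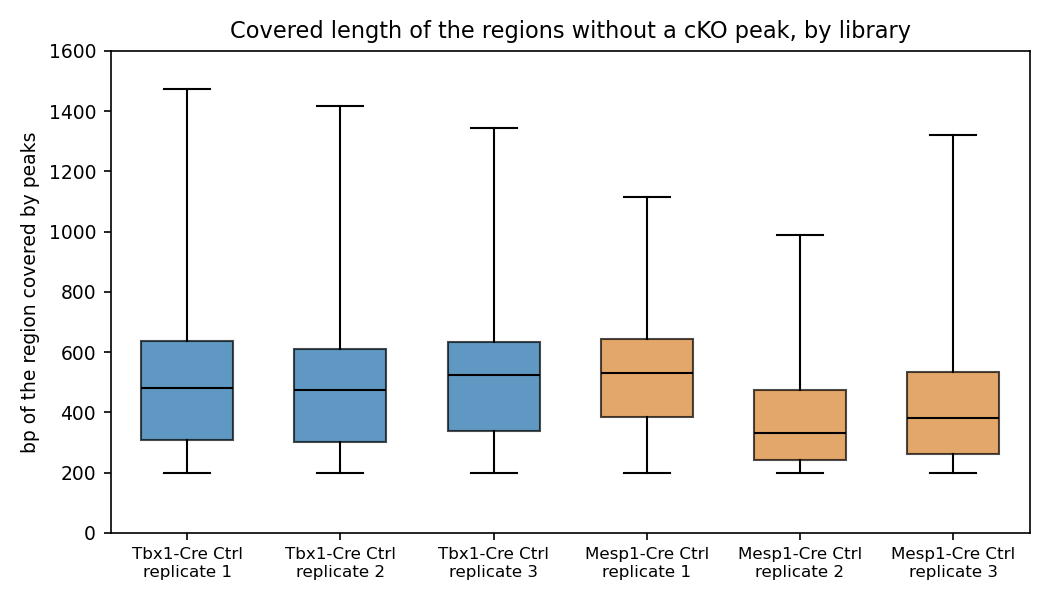
Covered length in bp (y axis, linear) of the 624 regions called in all 6 control libraries and in no cKO library, for each control library (x axis; blue, Tbx1-Cre Ctrl; orange, Mesp1-Cre Ctrl). Boxes show the quartiles with the median as a line and whiskers reach the lowest and highest value; the medians of Mesp1-Cre Ctrl replicates 2 and 3, 330.5 and 382.5 bp, are the lowest of the 6.

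Whether a region called in all 6 control libraries also had cKO peaks went with its covered length in the controls. These regions were ranked by their mean covered length over the 6 control libraries and divided into 10 bins of nearly equal size. In bin 1, the narrowest, with a median of 396 bp, 315 of 1771 regions (17.8%) had no cKO peak and 22.5% had a peak in all 3 cKO libraries. In bin 5, at 698 bp, the shares were 1.53% and 86.0%, and in bin 10, the widest, at 1238 bp, 0 of 1769 had no cKO peak and 99.2% had all 3. The median covered length was 456 bp for the 624 regions, 483 bp for those with 1 cKO library, 547 bp for those with 2 and 794 bp for those called in all 9. The shares also differed by position within a bin. Of the distal regions, those over 1 kb from any transcription start site (TSS), 20.5% of bin 1 had no cKO peak, against 10.7% of the regions at promoters. In bin 4 the shares were 5.15% and 0.484%. Over all bins, 525 of 6049 distal regions (8.68%) and 99 of 11656 promoter regions (0.849%) had no cKO peak.

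**Figure D2:**
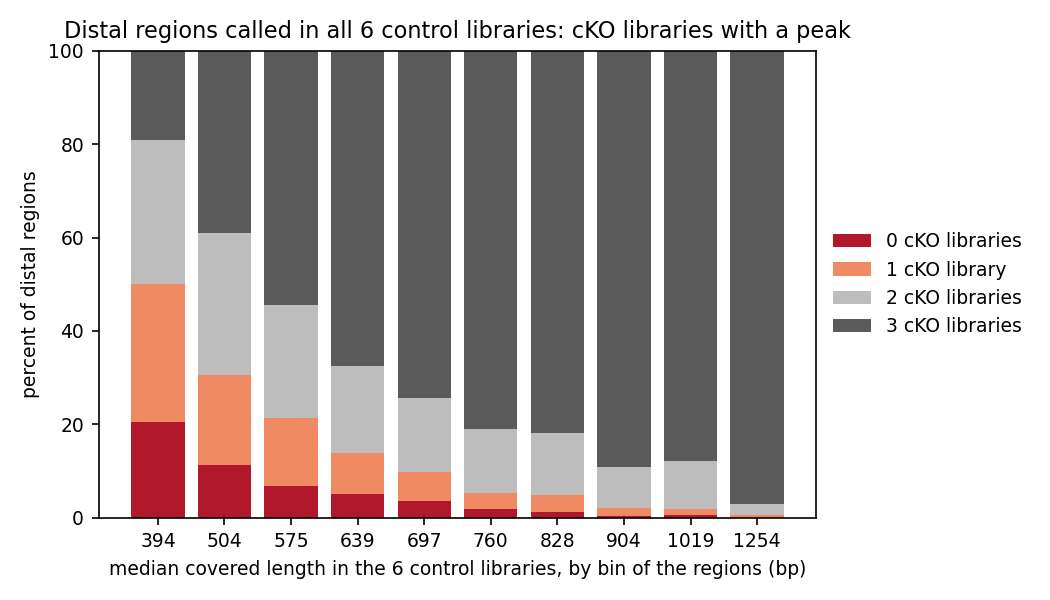
Distal regions called in all 6 control libraries, grouped into 10 bins of mean covered length (x axis, median of each bin in bp) and stacked by the number of cKO libraries with a peak (y axis, percent of regions). The share with no cKO peak, in red, is 20.5% in bin 1 and 0 in bin 10.

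The count of 624 moved with the libraries and the lengths of the lists. Without Mesp1-Cre Ctrl replicate 2, the shortest control list, 1108 regions met the rule, and without cKO replicate 1, the longest cKO list, 1377 did. With the 19762 widest peaks of every library, so that all lists were equally long, the rule gave 73 regions. Of the 624, 35 (5.61%) met the rule in those lists, since a region had to be among the widest peaks of all 6 control libraries, and of the 73 regions, 38 overlapped a peak of a full cKO list. The 35 included the regions in introns of Nrxn3, Ror1 and Fgfr2, the region near Sfrp1 and the wider Acvr2a region that are given below.

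Most of the 624 regions lay away from promoters. Within 1 kb of a TSS were 99 (15.9%), against 26.6% of the regions with 1 cKO library, 40.7% of those with 2, 75.7% of those called in all 9 and 24.8% of all merged regions. The median distance to a TSS was 20321 bp, against 127 bp for the regions called in all 9. Regions called in all 3 Tbx1-Cre Ctrl libraries but in no Mesp1-Cre Ctrl and no cKO library, of which there were 2270, were even less often at a TSS (6.61%, median distance 24666 bp). By the annotation, 316 of the 624 (50.6%) were intergenic, 256 (41.0%) intronic, 31 (4.97%) in an exon with UTR and 21 (3.37%) in another exon. Measured to protein-coding genes, 294 (47.1%) lay 10 to 100 kb and 146 (23.4%) over 100 kb from the nearest start. They were spread over all chromosomes, from 15 on chromosome 19 to 62 on chromosome 3, or 2.19% (chromosome 4) to 6.26% (chromosome 3) of the regions called in all 6 control libraries there.

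Of the 624 regions, which were 3.52% of the regions called in all 6 control libraries, 24 (3.85%) had another of the 624 within 50 kb. Some other region called in all 6 control libraries lay within that distance of 349 (55.9%). Neither share was worked out for the other classes, so they do not show whether the 624 were scattered or grouped. Of the 623 pairs of a member and such a neighbour, 435 (69.8%) led to a neighbour called in all 3 cKO libraries. The share was 77.1% of all regions called in all 6 control libraries. The nearest cKO peak lay 97 to 909485 bp away, with a median of 22129 bp. It was within 1 kb for 32 regions and over 10 kb away for 438. The closest were in the intron of Pappa, near BC043934 and in the intron of Pfkp, where a cKO peak lay 97, 102 and 109 bp from the region. Just outside the rule, 118 of the 1179 regions with 1 cKO library owed it to a cKO piece of 200 bp, the narrowest peak in those lists. The 3 widest of these in the controls were chr6:117476059-117477161 near Gm7292, chr14:51515779-51517426 near A930018M24Rik and chr2:167994643-167995776 near Adnp, with mean covered lengths of 792, 772 and 772 bp. The single cKO peak came from replicate 1 in 753 of the 1179, from replicate 2 in 294 and from replicate 3 in 132, in the order of the lengths of their lists.

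The widest of the 624 regions was chr12:90222149-90223777, in an intron of Nrxn3, which encodes a neuronal adhesion protein, 31443 bp inside the gene. Its covered length was 1015, 1416 and 1055 bp in Tbx1-Cre Ctrl and 1108, 536 and 1114 bp in Mesp1-Cre Ctrl, and the nearest cKO peak was 111577 bp away. The low value was that of Mesp1-Cre Ctrl replicate 2, and the other 5 libraries overlapped. The second, chr3:135669873-135671238, was intergenic, 123637 bp from the start of Slc39a8, with 794, 815 and 1344 bp in Tbx1-Cre Ctrl and 1099, 360 and 1130 bp in Mesp1-Cre Ctrl. The third, chr4:100016824-100017904, lay in an intron of Ror1, which encodes a receptor kinase related to Ror2, although its nearest coding start was that of Ube2u. It covered 1041, 793 and 1080 bp in Tbx1-Cre Ctrl and 854, 773 and 580 bp in Mesp1-Cre Ctrl. The fourth, in Fgfr2, is given with the FGF genes. At the fifth, chrX:48286608-48288100 in an intron of Frmd7, the 3 Tbx1-Cre Ctrl libraries covered 1473, 895 and 1225 bp and the Mesp1-Cre Ctrl libraries 588, 539 and 199 bp, so the lineages did not overlap there (log2 difference -1.34, limma adjusted p = 0.394). The remaining ones of the 10 widest were nearest to Ntrk3, Plcg2, Tifab, Pappa and Lypd1, with means of 782 to 809 bp.

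Each region was assigned to the protein-coding gene with the nearest start, which names a place and not a target. The 624 regions fell to 586 of 22208 coding genes (2.64%), 37 of them with 2 or more, and none was nearest to Tbx1. Genes were then read by lists of developmental pathways and cell types. Set against the 8.68% of all distal regions called in all 6 control libraries that had no cKO peak, the share was 13 of 58 (22.4%) for genes of mesenchyme transcription factors, 7 of 32 (21.9%) for the Wnt pathway, 4 of 22 (18.2%) for the FGF pathway, 5 of 30 (16.7%) for extracellular matrix and integrin genes and 4 of 27 (14.8%) for the BMP and TGF-beta pathway. It was 6 of 50 (12.0%) for guidance and migration genes, 3 of 25 (12.0%) for branchiomeric muscle regulators and 5 of 42 (11.9%) for cardiopharyngeal and second heart field transcription factors. Counts of a few regions, as in several of the lists above, cannot be read closely against the background. The remaining lists had fewer than 20 distal regions each, so their shares are less certain still. They had 0 of 18 (Notch pathway), 1 of 17 (endothelium and blood), 1 of 15 (endoderm and epithelium), 0 of 13 (retinoic acid pathway), 2 of 10 (multilineage progenitors), 1 of 9 (neural crest, placode and neural) and 0 of 3 (cardiac sarcomere). These are counts of regions, not replicates, and no test was made of them.

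**Figure D3:**
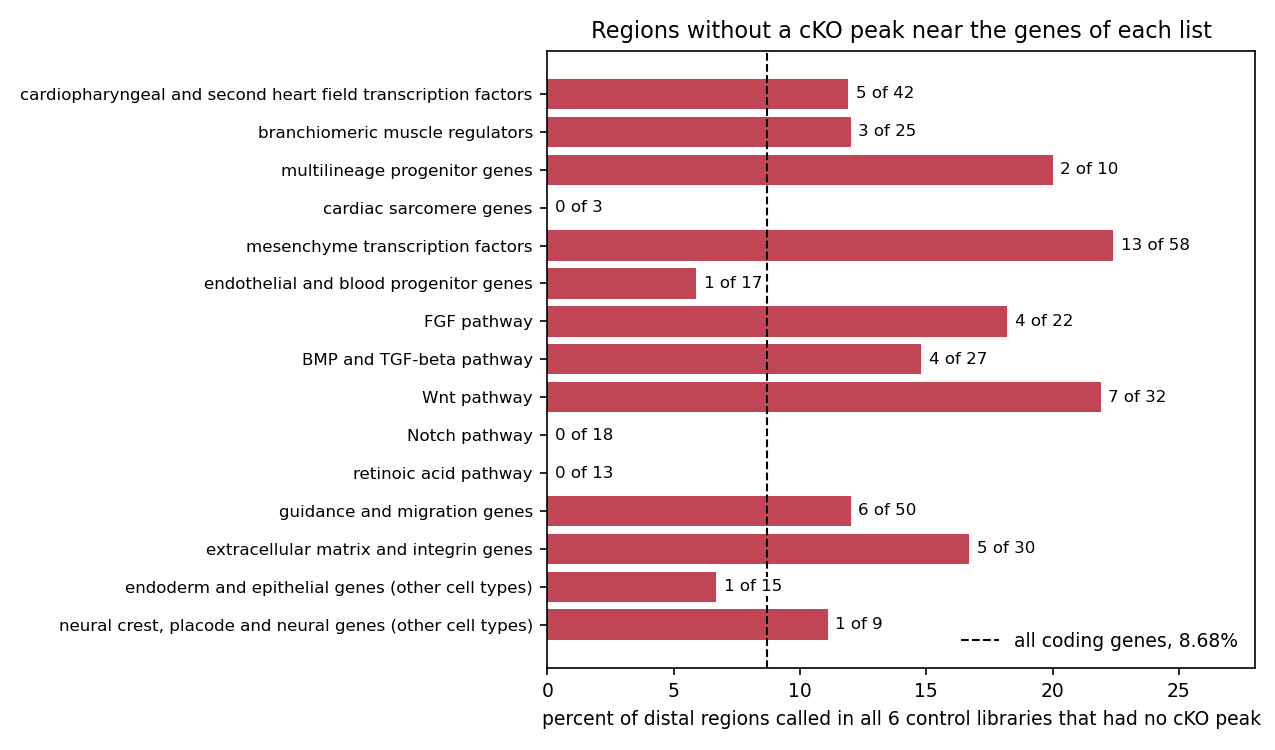
Percent of the distal regions called in all 6 control libraries that had no cKO peak (x axis), for the regions nearest to the genes of each list (y axis), with the counts beside each bar and 8.68% over all coding genes as a dashed line. The bars of mesenchyme transcription factors (13 of 58) and Wnt pathway genes (7 of 32) are the longest, and the lists of cardiac sarcomere, Notch pathway and retinoic acid pathway genes have no such region.

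Among mesenchyme transcription factors, 11 of 34 genes had at least 1 of the 624 regions as against 2.64% of all coding genes. The 2 shares are not like for like. The 34 genes had 85 regions called in all 6 control libraries, while all 22208 coding genes had 17705. Per distal region the shares were 22.4% and 8.68%. The 11 genes are not all named here. They included Id2, Meis1, Osr1, Snai2, Tcf15, Tshz3 and Zeb2. Snai2 and Zeb2 encode repressors of epithelial genes. Near Tshz3, a zinc finger gene, chr7:37662309-37663305 was intergenic and 179770 bp from the start, with 926, 856 and 767 bp covered in Tbx1-Cre Ctrl and 429, 553 and 670 bp in Mesp1-Cre Ctrl. The lineages did not overlap at this region, although the difference did not pass the test (log2 difference -0.42, limma adjusted p = 0.603). Near Osr1, a zinc finger gene of lateral and intermediate mesoderm, chr12:9663770-9664808 covered 733, 807 and 662 bp in Tbx1-Cre Ctrl and 955, 465 and 204 bp in Mesp1-Cre Ctrl. The region assigned to Meis1, a homeodomain partner of Hox proteins, was chr11:19153796-19154663, intergenic and 235284 bp upstream of the start. It covered 868, 657 and 746 bp in Tbx1-Cre Ctrl and 678, 414 and 207 bp in Mesp1-Cre Ctrl. At both places Mesp1-Cre Ctrl replicates 2 and 3 were lower than every Tbx1-Cre Ctrl library and replicate 1 was not.

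Of the 26 cardiopharyngeal and second heart field genes, Foxc1, Foxf1a, Hand2, Tbx18 and Tbx3 had 1 region each. Hand2 encodes a basic helix-loop-helix factor of the heart and pharyngeal arches (ENSMUSG00000038193.3). Its region, chr8:59819525-59820400, was intergenic, 20118 bp from the start, and held the T-box letters printed above. It covered 383, 619 and 628 bp in Tbx1-Cre Ctrl and 658, 511 and 460 bp in Mesp1-Cre Ctrl, and the nearest cKO peak was 6396 bp away. The groups had the same mean of 543 bp with SDs of 139 and 103 bp (n = 3 each). The region of Tbx3, a T-box gene, was chr5:120024957-120025750, 95379 bp upstream, with 789, 457 and 342 bp in Tbx1-Cre Ctrl and 564, 199 and 794 bp in Mesp1-Cre Ctrl. At Foxf1a, a forkhead gene of splanchnic mesoderm, chr8:123517514-123518189 lay 90426 bp upstream in an intron of Gm20388 and covered 425, 364 and 637 bp in Tbx1-Cre Ctrl and 528, 584 and 616 bp in Mesp1-Cre Ctrl. In all 3 the lineages overlapped.

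Of 22 branchiomeric muscle regulators, Ebf1, Ebf3 and Msc had 1 region each. Ebf1 and Ebf3 encode helix-loop-helix factors, and Msc encodes musculin, a repressor present in head muscle precursors. The Ebf1 region, chr11:44679831-44681005 in an intron of the gene, covered 1075, 613 and 972 bp in Tbx1-Cre Ctrl and 664, 720 and 492 bp in Mesp1-Cre Ctrl. The Ebf3 region, chr7:144323722-144324398, was intergenic, 135149 bp from the start, and covered 600, 244 and 471 bp in Tbx1-Cre Ctrl and 626, 473 and 499 bp in Mesp1-Cre Ctrl. The Msc region was the narrowest, chr1:14808781-14809298, 63037 bp upstream, with 250, 316 and 518 bp in Tbx1-Cre Ctrl and 490, 373 and 267 bp in Mesp1-Cre Ctrl. Values of the lineages overlapped at each of the 3. Of the 6 genes listed for multilineage progenitors, the mesoderm cells that can still give heart or head muscle, only Nrg1, which encodes the growth factor neuregulin, had any, and it had 2. One was chr8:33245978-33246923, 126867 bp upstream, with 676, 362 and 460 bp in Tbx1-Cre Ctrl and 912, 561 and 541 bp in Mesp1-Cre Ctrl. The other was chr8:32996002-32996591, in an intron, with 521, 200 and 283 bp in Tbx1-Cre Ctrl and 538, 420 and 409 bp in Mesp1-Cre Ctrl.

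Some regions were nearest to genes of signalling pathways, whose shares per distal region are given above beside that of all distal regions. In the FGF pathway the ligand gene Fgf1, the receptor gene Fgfr2 and the feedback inhibitor genes Dusp6 and Spry1 had 1 region each, 4 of 23 genes. The Fgfr2 region, chr7:137422011-137423310, was intronic and 12266 bp from the nearest start of the gene, with 1300, 694 and 896 bp in Tbx1-Cre Ctrl and 1115, 279 and 730 bp in Mesp1-Cre Ctrl. The Dusp6 region, chr10:98761212-98762109, was intergenic, 35672 bp from the start, with 858, 451 and 570 bp in Tbx1-Cre Ctrl and 783, 690 and 652 bp in Mesp1-Cre Ctrl. Both overlapped between the lineages, and Mesp1-Cre Ctrl replicate 2 was the low library at Fgfr2 but not at Dusp6. In the Wnt pathway, 7 of 36 genes had 1 each: the ligand gene Wnt2b, the receptor genes Fzd1, Lrp6 and Ror2, the secreted modulator genes Sfrp1 and Dkk2, and Tcf7l1, which encodes a nuclear partner of beta-catenin. The widest was near Sfrp1, chr8:24490009-24490998, 31546 bp upstream, with 692, 604 and 884 bp in Tbx1-Cre Ctrl and 533, 495 and 581 bp in Mesp1-Cre Ctrl. There all 3 Tbx1-Cre Ctrl libraries were above all 3 Mesp1-Cre Ctrl libraries, with a log2 difference of -0.20 after centring (limma adjusted p = 0.711). In the BMP and TGF-beta pathway the members were nearest to the receptor genes Acvr1, Acvr2a and Bmpr1b, 3 of 29 genes. The first of the Acvr2a regions, chr2:47993330-47994285, lay 675762 bp upstream in an intron of Gm13481 and covered 901, 717 and 865 bp in Tbx1-Cre Ctrl and 582, 745 and 560 bp in Mesp1-Cre Ctrl. The other Acvr2a region lay 495409 bp upstream, also in an intron of Gm13481.

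Itga8, which encodes the alpha-8 integrin subunit, a matrix receptor of mesenchyme, was the only gene with 3 of the 624 regions, among 5 regions called in all 6 control libraries that were nearest to it. The first, chr2:12111984-12112958, was intronic, 2217 bp inside the gene, with 692, 952 and 970 bp in Tbx1-Cre Ctrl and 680, 279 and 616 bp in Mesp1-Cre Ctrl. Every Tbx1-Cre Ctrl value was above every Mesp1-Cre Ctrl value there, the closest pair being 692 and 680 bp (limma adjusted p = 0.594). The second, chr2:11989028-11989744, 64806 bp downstream of the start, covered 531, 514 and 583 bp in Tbx1-Cre Ctrl and 690, 460 and 570 bp in Mesp1-Cre Ctrl. The third, chr2:12248890-12249310, 25587 bp upstream, was narrow, with 219, 291 and 266 bp in Tbx1-Cre Ctrl and 401, 199 and 267 bp in Mesp1-Cre Ctrl, and a cKO peak lay 207 bp from it. Lama4 and Lamc1, which encode laminin chains, had 1 region each, that of Lama4 being 699834 bp upstream of its start. Of the 29 guidance and migration genes, Cxcl12, Epha3, Plxna2, Robo2, Sema3f and Slit1 had regions. In the lists for other cell types, Pecam1 of 19 endothelial and blood progenitor genes, Pax1 of 21 endoderm and epithelial genes and Pax6 of 18 neural crest, placode and neural genes had 1 region each, or 5.26%, 4.76% and 5.56% of the genes against 2.64% of all coding genes, counts too small to read.

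**Figure D4:**
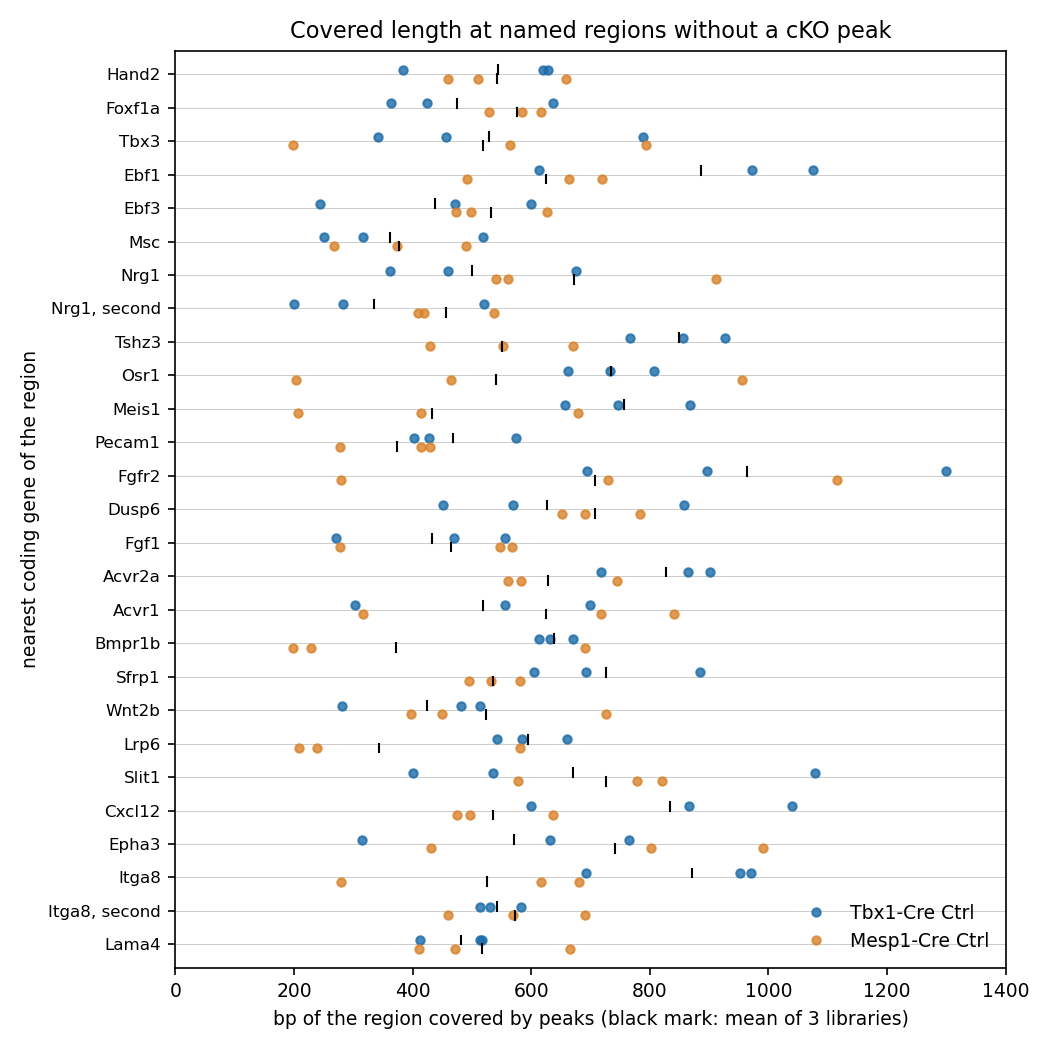
Covered length in bp (x axis) of 27 named regions called in no cKO library, one row per region with its nearest coding gene (y axis), for the 3 Tbx1-Cre Ctrl (blue) and 3 Mesp1-Cre Ctrl libraries (orange); black marks are group means. At Hand2 the values run from 383 to 658 bp with equal means, and at Tshz3 every blue point, from 767 bp up, lies to the right of every orange point.

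The promoters of the nearest genes were read next. They were compared only as a description, since Ctrl and cKO are the groups the rule contrasts. Of the 501 genes nearest to regions over 1 kb from a coding start, 79.2%, 80.4% and 82.0% had a promoter peak in the Tbx1-Cre Ctrl libraries, 80.2%, 73.9% and 76.2% in the Mesp1-Cre Ctrl libraries and 73.3%, 73.1% and 67.5% in the cKO libraries. For all coding genes the shares were 61.9% to 63.0%, 56.8% to 63.0% and 52.9% to 58.4%. Of the 389 genes with a promoter peak in all 3 Tbx1-Cre Ctrl libraries, 316 (81.2%) had one in all 3 cKO libraries and 10 (2.57%) in none, against 85.1% and 2.36% of 13123 coding genes. The promoter was thus called in cKO at most of these genes, with shares close to those of all coding genes, so this was not particular to them. Among the 46 listed genes with a region, 45 had a promoter peak in all 3 Tbx1-Cre Ctrl libraries, 32 of those in all 3 cKO libraries, 11 in 1 or 2 and 2 in none. Tbx3, Ebf1, Ebf3, Msc, Nrg1, Fgfr2, Dusp6, Sfrp1, Itga8, Meis1 and Osr1 had it in all 3 cKO libraries. Hand2 and Foxf1a had it in 1, Tshz3 and Zeb2 in 2, and Tcf15 and Slit1 in none. The Slit1 region lay 461 bp from the start itself. Pecam1 had no promoter peak in any of the 9 libraries.

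Sequence was not used by the rule. The letters of 16 motifs, and MEF2 and CTCF motifs, were searched on both strands of the 300 bp windows. These shares are descriptions of the windows, and their Wilson 95% intervals cover counting error only. The T-box letters GGTGTGA were in 3.21% of the windows of the 624 regions and in 3.89% of those of all merged regions. Among distal regions they were in 19 of 525 (3.62%, interval 2.33% to 5.58%), against 4.39% of regions with 1 cKO library, 4.11% with 2, 3.67% of those called in all 9 and 4.24% of all distal merged regions. The intervals overlapped throughout. TAATT followed by CAGATG with 5 bases between was in 0 of 525 windows, an upper bound of 0.726%, against 0.145% of all distal merged regions.

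GATA letters, AGATAA, the core that GATA factors of heart and blood bind, were in 110 of the 525 distal windows (21.0%, interval 17.7% to 24.6%). The share was 13.8% (11.6% to 16.2%) with 1 cKO library, 14.2% (12.4% to 16.2%) with 2 and 9.12% (8.19% to 10.2%) in regions called in all 9. It was 12.4% in the distal Tbx1-Cre Ctrl regions called in neither Mesp1-Cre Ctrl nor cKO, and 15.5% in all distal merged regions. TNAAGTG, the core of NK2 homeodomain factors such as Nkx2-5, was in 19.6% of the distal windows, 16.0% with 1 cKO library, 12.4% with 2 and 11.8% of those called in all 9. TGACAG, the core of MEIS factors, was in 33.3%, 31.9%, 26.5% and 21.9% in the same order. The E-boxes CAGCTG and CAGATG, read by basic helix-loop-helix factors, were in 31.2% and 33.0% of the distal windows and in 25.3% and 23.4% of those called in all 9. With 1 cKO library the 2 shares were 28.2% and 27.9%, and with 2 they were 27.4% and 27.1%. MEF2 motifs were rare, in 8 of 525 (1.52%, interval 0.774% to 2.98%) against 0.361% (0.207% to 0.631%) of those called in all 9. The GC-rich letters GGGCGG of SP/KLF factors were in 11.4% against 29.9% of those called in all 9. They were in 10.8% of all distal merged regions, a share close to that of the members. The TEAD letters GGAATG were in 105 of 525 against 598 of 3321, with overlapping intervals. Of the other letters searched, TAATTA (homeodomain) was in 9.52% (7.30% to 12.3%) against 5.45% (4.73% to 6.27%) of the windows called in all 9, TGATTNAT (HOX composite) in 5.52% against 3.04% and TAATCC (bicoid type) in 8.57% against 6.71%. GAAACNTGA (sine oculis type), TGTTTAC (forkhead), ACAATGG (SOX), TGACTCA (AP-1) and the CTCF motif were in 1.90%, 4.76%, 2.29%, 4.38% and 2.10% of the distal windows, against 1.96%, 4.40%, 3.19%, 4.0% and 2.89%. Over all distal merged regions the shares were 15.8% (NK2), 26.3% (MEIS), 24.0% (CAGCTG), 27.5% (CAGATG) and 0.584% (MEF2). They were 19.4% (TEAD), 6.9% (TAATTA), 4.34% (HOX composite) and 8.49% (bicoid type), the last close to the share of the members. For the last 5 motifs they were 2.17%, 5.36%, 3.64%, 5.4% and 2.92%. In the distal Tbx1-Cre Ctrl regions called in neither Mesp1-Cre Ctrl nor cKO, CAGCTG was in 22.6%, CAGATG in 31.4%, TAATTA in 7.69% and MEF2 in 0.472%.

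Base composition and covered length moved with these shares. The median GC content of the distal windows was 49.0%, 51.0%, 52.3% and 54.7% for 0, 1, 2 and 3 cKO libraries, and the median covered length 457, 480, 528 and 667 bp. In distal windows with 45 to 55% GC, the GATA share was 18.7% (14.9% to 23.3%, 61 of 326) in the regions without a cKO peak, 15.8% with 1 cKO library, 17.3% (14.8% to 20.2%) with 2 and 11.9% (10.4% to 13.7%) with 3, so that the intervals of 0 and 2 overlapped and those of 0 and 3 did not. In the 3 narrowest bins of covered length the shares were 21.3% (17.8% to 25.3%), 13.6%, 13.7% and 9.66% (8.11% to 11.5%). The MEIS share in the GC band was 35.3% (30.3% to 40.6%) in the regions without a cKO peak and no lower with 1 cKO library, at 35.6% (31.6% to 39.8%). It was 28.7% (25.6% to 32.0%) with 2 and 26.2% (24.0% to 28.5%) with 3. The NK2 share was 20.2% (16.2% to 24.9%), 18.3% (15.2% to 21.8%), 14.6% (12.2% to 17.2%) and 14.1% (12.4% to 15.9%) in the same order. For all 3 motifs the intervals of 0 and 1 cKO library overlapped in this band. Both restrictions were chosen after the data were seen. They were applied to GATA, NK2 and MEIS only, and the other motifs were not compared at like GC or covered length.

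**Figure D5:**
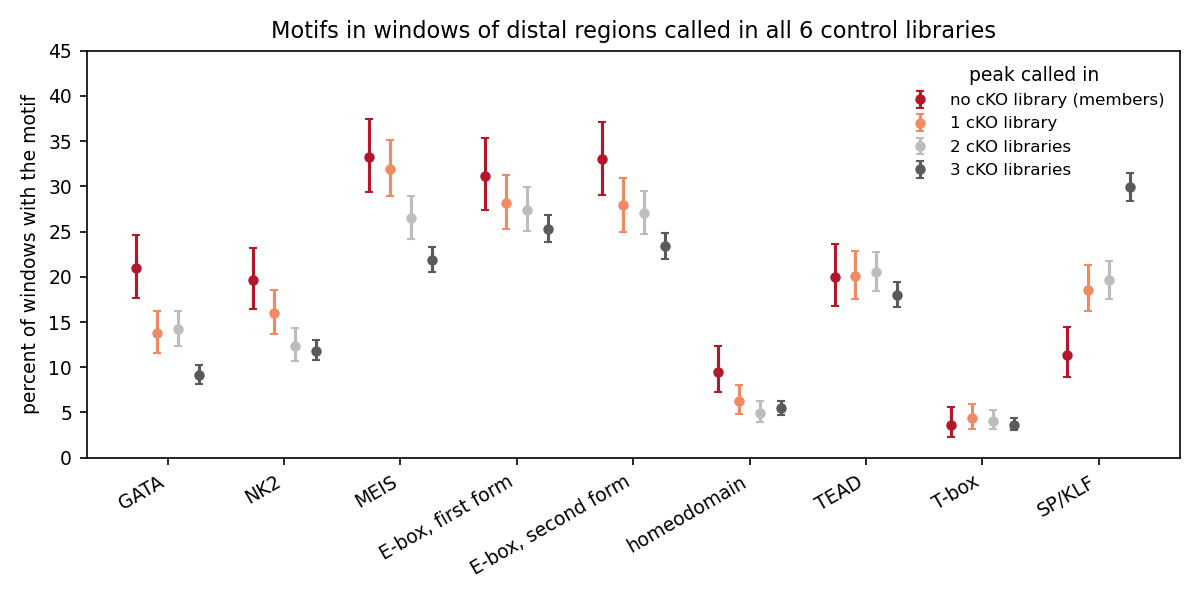
Percent of 300 bp windows that hold each motif (y axis) in distal regions called in all 6 control libraries, by the number of cKO libraries with a peak (colours), with Wilson 95% intervals; the E-box forms are CAGCTG, the first, and CAGATG, the second. The share with GATA falls from 21.0% with no cKO library to 9.12% with 3, T-box stays between 3.62% and 4.39%, and SP/KLF rises from 11.4% to 29.9%.

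The difference in covered length between the 2 control lineages was not used by the rule and was tested over all 17705 regions called in all 6 control libraries, with limma on log2 covered length and libraries centred on their medians. No region passed an adjusted p of 0.05 (0 of 17705, 0.0%), and so none of the 624 did. Without the centring 19 of 17705 (0.107%) passed, 3 of them among the 624. At an unadjusted p under 0.05, 115 of the 624 (18.4%) stood against 1664 of all regions (9.4%). Of the 624, 315 were in bin 1, the narrowest, and whether this bears on the 18.4% was not tested. At this threshold 74 of the 624 were wider in Mesp1-Cre Ctrl, against 555 of 17705 (3.13%). In Tbx1-Cre Ctrl 41 of the 624 were wider, against 1109 of 17705 (6.26%), a similar share. Without the centring 30 members were wider in Mesp1-Cre Ctrl, against 123 of all regions (0.695%). In that setting 70 were wider in Tbx1-Cre Ctrl, against 2298 (13%). Without Mesp1-Cre Ctrl replicate 1 the members numbered 54 and 65, against 495 (2.8%) and 1518 (8.57%) of all regions. Which of the 2 member counts was larger thus changed with the setting, and the shares over all regions changed as well. The median log2 difference, Mesp1-Cre minus Tbx1-Cre, was 0.03 over the 624 and 0.02 over all regions tested, and -0.19 and -0.20 without the centring.

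The smallest adjusted p of the whole fit, 0.0519, was shared by 2 of the 624 regions and regions outside them. These 2 were singled out after their values were seen, as were the regions near Cdh18 and Pax1, which are given as examples of the opposite direction and are not next in rank. Near Adamts9, chr6:93211973-93212753 covered 629, 673 and 711 bp in Tbx1-Cre Ctrl and 200, 199 and 217 bp in Mesp1-Cre Ctrl (log2 difference -1.49 ± 0.14 SE, limma adjusted p = 0.0519). Near Hmga2, which encodes a chromatin protein of embryonic cells, chr10:119963888-119964602 covered 688, 695 and 715 bp against 199, 217 and 216 bp (-1.51 ± 0.15 SE, limma adjusted p = 0.0519). In both, the Mesp1-Cre Ctrl peaks were at or close to the narrowest width in those lists, 199 bp. The opposite direction was seen in an intron of Cdh18, a cadherin gene, where chr15:23381754-23382423 covered 220, 299 and 214 bp in Tbx1-Cre Ctrl and 577, 590 and 520 bp in Mesp1-Cre Ctrl (1.44 ± 0.20 SE, limma adjusted p = 0.0792). Near Pax1, a gene of pharyngeal pouch endoderm and sclerotome, chr2:147276415-147277092 covered 298, 309 and 297 bp against 504, 439 and 398 bp (0.78 ± 0.14 SE, limma adjusted p = 0.141). In each of these 4 regions the lineages did not overlap, and none passed the adjusted threshold.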

How the data were processed

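ATAC-seq peak lists of 9 libraries (3 each of Tbx1-Cre Ctrl, Mesp1-Cre Ctrl and Tbx1-Cre cKO) were used. The authors trimmed adapters with cutadapt, aligned reads to mm9 with Bowtie2 2.3.4.3, kept unique concordant pairs, removed duplicates and mitochondrial reads, and ran MACS2 on every library by itself. The deposited values are interval positions in bp, with no scores, so the count model of the study could not be used and depth is unknown. No interval or floor for depth can be given, and the number of peaks per library is in the report.

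Genes, start sites and sequence came from GENCODE vM1 and the NCBIM37 genome, the same build as mm9. The last peak on chromosome 1 ended at 197068332 of its 197195432 bp. The 45 peaks that ran past a chromosome end were kept. Coordinates are 1-based. Regions were merged at an overlap of 1 bp, promoters were within 1 kb of a TSS of any gene, and nearest genes were protein-coding. Distances run from the midpoint of the stretch that most libraries cover.

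Log2 covered length was fitted with limma 3.58.1 (R 4.3.3, Benjamini-Hochberg adjustment over all 17705 regions). Library medians were tested by exact permutation (two-sided), in which the library, made from its own pool of embryos, is the replicate. Numbers in the sample titles were not used to pair the samples in the main fit. The 15 gene lists and the motifs were read as counts, without tests. The text names the 10 widest members, up to 3 members per gene list, the genes with most members, members nearest to a cKO peak and regions just outside the rule. The procedures were tested on simulated data with known answers. The members and lists were chosen with earlier results of these data known. Python 3.11.15 with numpy 2.4.6, pandas 2.3.3 and scipy 1.17.1 was used, and matplotlib 3.10.9 for plots.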

Additional observations from a re-analysis of the deposited data

Results flagged for a closer look

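Each Mesp1-Cre Ctrl list held 2 intervals on the mitochondrial chromosome, while the Tbx1-Cre Ctrl and cKO lists held none. These intervals are outside the chromosomes compared, and no member rests on them. The narrowest peak was also 199 bp in the Mesp1-Cre Ctrl lists and 200 bp in the Tbx1-Cre lists, so the lists of the lineages differ in both respects. Whether the steps that made them differed was not tested.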

How the results depend on the processing

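The number of regions that met the rule, 624, was between 660 and 1377 when 1 of the 9 libraries was left out, with 1108 without Mesp1-Cre Ctrl replicate 2 and 1377 without Tbx1-Cre cKO replicate 1. Equal numbers of widest peaks per library gave 73. Fewer lists that must hold or lack a peak can only raise the count, and fewer peaks per list make it harder to be called in all 6 control libraries. The share within 1 kb of a TSS, 15.9%, was 22.0% at 2.5 kb, 27.2% at 5 kb and 12.1% among members with no cKO peak within 10 kb. The T-box share, 3.21% (all merged regions 3.89%), was 1.92% in 200 bp windows (all 2.56%), 0.962% for AGGTGTGA (all 0.956%), 15.9% for GGTGTG (all 17.8%) and 6.85% with equal numbers of widest peaks, the last over 73 regions. The count of regions that passed limma's adjusted threshold, 0, was 19 without centring of the libraries and 0 to 0 when 1 control library was left out. The difference in median covered length, -78.3 bp, was -136 to -36.2 bp when 1 control library was left out.

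Samples with the same title number deviated together weakly at most (correlations of 0.048, 0.025 and 0.014 across regions). Even so, 4 of 6 control libraries correlated best with their own number, so a slight pairing is not excluded. With the replicate block limma passed 0 regions, with 1718 at an unadjusted p under 0.05 in place of 1664, and the difference in medians stayed -78.3 bp (p = 0.5, exact sign-flip permutation, two-sided). The block changed no call. The remaining settings left the count of members within 1.5 times of 624, both shares within their counting intervals and the sign of the difference in medians as it was. Peak lists limit these results: a region without a called peak may still hold reads, and widths near 200 bp are set by the peak caller's narrowest call.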
